A study of Saccharomyces cerevisiae with 46 samples.

Results

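The genes of glycogen synthesis and breakdown were followed by RNA-seq in budding yeast cells that lacked Spt4, had been depleted of Spt4 or had been depleted of Spt5, the partners of the conserved transcription elongation factor Spt4-Spt5. The members were named by their enzymatic roles, with earlier results of these data known, and not by a rule on their values: 9 genes, *GSY1*, *GSY2*, *GLG1*, *GLG2*, *GLC3*, *GPH1*, *GDB1*, *PGM2* and *UGP1*. Of these, 7 were among the 5572 genes of the table of *spt4Δ* and WT cells. In each of the tables of depleted cells, 3 (*GSY2*, *GLC3* and *UGP1*) were among 4835 genes. *GPH1*, which encodes glycogen phosphorylase, and *GDB1*, which encodes the debranching enzyme, were not analysed here, so the breakdown branch has no values below.

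The comparisons used 10 libraries of total RNA, all from cells grown in YPD at 30°C, and all strains carried *RPB3-3xFLAG*. The *spt4Δ* cells were a BY4741 strain without *SPT4*, and the WT cells were the same background with it, with 2 libraries each. In the anchor-away strains the target protein carries an FRB-eGFP tag and the ribosomal protein Rpl13 carries *2xFKBP12*, so that rapamycin tethers the target to Rpl13 and draws it out of the nucleus. All of these strains also carried *tor1-1* and *fpr1Δ*. The groups were Spt4-AA (*SPT4-FRB-eGFP*, rapamycin for 140 min, 2 libraries), Spt5-AA (*SPT5-FRB-eGFP*, rapamycin for 180 min, 2 libraries) and DMSO for 120 min, which held 1 library of the *SPT4-FRB* strain (DMSO replicate 1) and 1 of the *SPT5-FRB* strain (DMSO replicate 2). Depletion, rapamycin and the time of harvest changed together in the anchor-away comparisons and cannot be told apart. RNA-seq of a strain without the FRB tag was not analysed here.

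Glycogen is the branched glucose store that yeast builds as glucose runs down. Glucose 6-phosphate is turned into glucose 1-phosphate by phosphoglucomutase (*PGM2* encodes the major form) and then into UDP-glucose by UDP-glucose pyrophosphorylase (*UGP1*). Glycogenin (*GLG1* and *GLG2*) starts each chain on itself, glycogen synthase (*GSY1* and *GSY2*) lengthens it, and the branching enzyme (*GLC3*) adds the branches. UDP-glucose also feeds trehalose and cell wall synthesis. Several of these genes are known targets of Msn2 and Msn4, activators of the general stress response, which bind the stress response element (STRE), AGGGG.

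The sequence upstream of each gene was searched for this element because it is the element through which Msn2 and Msn4 reach their targets. Within the 500 bases before the start codon, AGGGG on either strand was found 5 times for *PGM2*, 4 times for *UGP1*, 3 times for *GLC3*, 2 times each for *GSY1*, *GSY2* and *GLG2*, and 0 times for *GLG1*. Of 6000 protein-coding genes, 34.1% had at least 1 match in the same window, 8.13% at least 2, 1.83% at least 3 and 0.45% at least 4. All 4 matches of *UGP1* lay inside the neighbouring gene *AIM26*, and 1 of the *GLG2* matches lay inside *YJL136W-A*. A match describes the letters and not binding. The match nearest to the start codon outside any other annotated gene is shown for *GSY2*, *GLC3*, *PGM2* and *GSY1*, with the nearest of *UGP1*, each 5′ to 3′ on the gene's own strand with the element (or its complement, CCCCT) in capitals.
GLC3: aagctttgtccaAGGGGctgttgcaacgg
GSY2: gaacgcaattcaCCCCTttctttcttatg
PGM2: ccaggaacaaacAGGGGttgaaaagtgta
GSY1: ccacaagtaataCCCCTtggaggattttt
UGP1: ccccttcccccgCCCCTtctcgaacagcc
In the RefSeq copy of the R64 genome, the build named for the deposited data, these windows are chrV:132895-132923 (plus strand, 208 bases before the *GLC3* start codon), chrXII:660508-660536 (plus, 191 bases before *GSY2*), chrXIII:477806-477834 (minus, 211 bases before *PGM2*), chrVI:176707-176735 (minus, 327 bases before *GSY1*) and chrXI:369619-369647 (plus, 255 bases before *UGP1*).

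The coding sequences are at chrV:133120-135234 for *GLC3* (YEL011W), chrXII:660716-662833 for *GSY2* (YLR258W), chrVI:174265-176391 for *GSY1* (YFR015C), chrXIII:475897-477606 for *PGM2* (YMR105C), chrXI:369891-371390 for *UGP1* (YKL035W), chrXI:552770-554620 for *GLG1* (YKR058W) and chrX:154985-156127 for *GLG2* (YJL137C). Each is 1 coding exon, and none overlaps another annotated gene. Both members of a paralog pair were counted apart, and their coding sequences differ enough that 0 stretches of 50 bases are shared within any pair. *GSY1* and *GSY2* are 73.5% identical over 2061 aligned bases with a longest shared run of 20 bases, *GLG1* and *GLG2* are 67.2% identical over 543 bases, and *PGM2* is 73.0% identical to *PGM1*, the minor phosphoglucomutase, over 1724 bases.

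The unit below is the median-scaled normalised count: the deposited normalised count divided by its library's median ratio to the geometric mean of the libraries in the table, so that a change is relative to the median gene. On the deposited scale the median gene itself moved, by a log2 fold change of 0.83 in *spt4Δ* (1.54 in replicate 1 and 0.14 in replicate 2), -0.28 in Spt4-AA and -1.84 in Spt5-AA. Libraries held between 798455 reads (Spt5-AA replicate 1) and 6814227 reads (*spt4Δ* replicate 1). The interquartile range of the log2 difference between replicates was wider in *spt4Δ* (0.718) than in WT (0.275), wider in Spt4-AA (0.502) than in DMSO (0.236), and wider in Spt5-AA (0.365) than in DMSO (0.228). *SPT4* itself had 0 and 4 reads in the *spt4Δ* libraries, against 531 and 250 reads in WT. Fold changes are on the log2(value + 1) scale and were tested with limma over all genes with a mean of at least 10, and a gene was called at a Benjamini-Hochberg adjusted p below 0.05. The labels do not say that the replicate RNA-seq libraries came from separate cultures, so p-values measure the spread between libraries, and the 2 libraries a group limit their precision.

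In *spt4Δ* cells the branching enzyme gene and the major phosphoglucomutase gene rose, and the initiator genes did not. *GLC3* had 319.9 and 329.8 median-scaled counts in *spt4Δ*, against 100.1 and 99.7 in WT, from 376 and 468 reads against 118 and 52. The pairs of libraries were far apart and each was tight. The log2 fold change was 1.69 (SE 0.218, a 3.23-fold rise, limma adjusted p = 0.00592), rank 20 among 5278 genes tested. *PGM2* had 374 and 386 counts in *spt4Δ*, against 102 and 169 in WT, again without overlap. Its log2 fold change was 1.53 (SE 0.264, 2.88-fold, limma adjusted p = 0.0208), rank 29.

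The glycogen synthase genes lay above WT in both libraries without passing the limma test. *GSY2*, the more abundant synthase transcript in these libraries, had 861 and 835 counts in *spt4Δ*, against 300.2 and 506 in WT. *GSY1* had 116 and 178 counts in *spt4Δ*, against 50.9 and 74.8 in WT. For both genes each *spt4Δ* library exceeded each WT library, with log2 fold changes of 1.12 (SE 0.269, limma adjusted p = 0.0915) for *GSY2* and 1.21 (SE 0.301, adjusted p = 0.104) for *GSY1*. DESeq2 on the recovered reads did call *GSY2* (1.08, DESeq2 adjusted p = 0.0252), and edgeR did not (adjusted p = 0.0963). *UGP1*, which makes the UDP-glucose used by synthase, had 2016 and 2749 counts in *spt4Δ*, against 1548 and 1467 in WT. Its libraries did not overlap either, but the *spt4Δ* pair was spread widely, and the log2 fold change was 0.64 (SE 0.252, limma adjusted p = 0.373).

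The glycogenin genes gave no limma call and had the lowest counts of the members, not corrected for length. *GLG1* had 26.4 and 45.8 counts in *spt4Δ*, against 44.1 and 49.9 in WT. *GLG2* had 19.6 and 38.8 counts in *spt4Δ*, against 38.2 and 42.2 in WT. Groups overlapped for both genes, with *spt4Δ* replicate 1 the lowest library each time. The log2 fold changes were -0.42 (SE 0.364, limma adjusted p = 0.769) and -0.52 (SE 0.404, adjusted p = 0.740), from 22 to 65 reads a library.

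**Figure D1:**
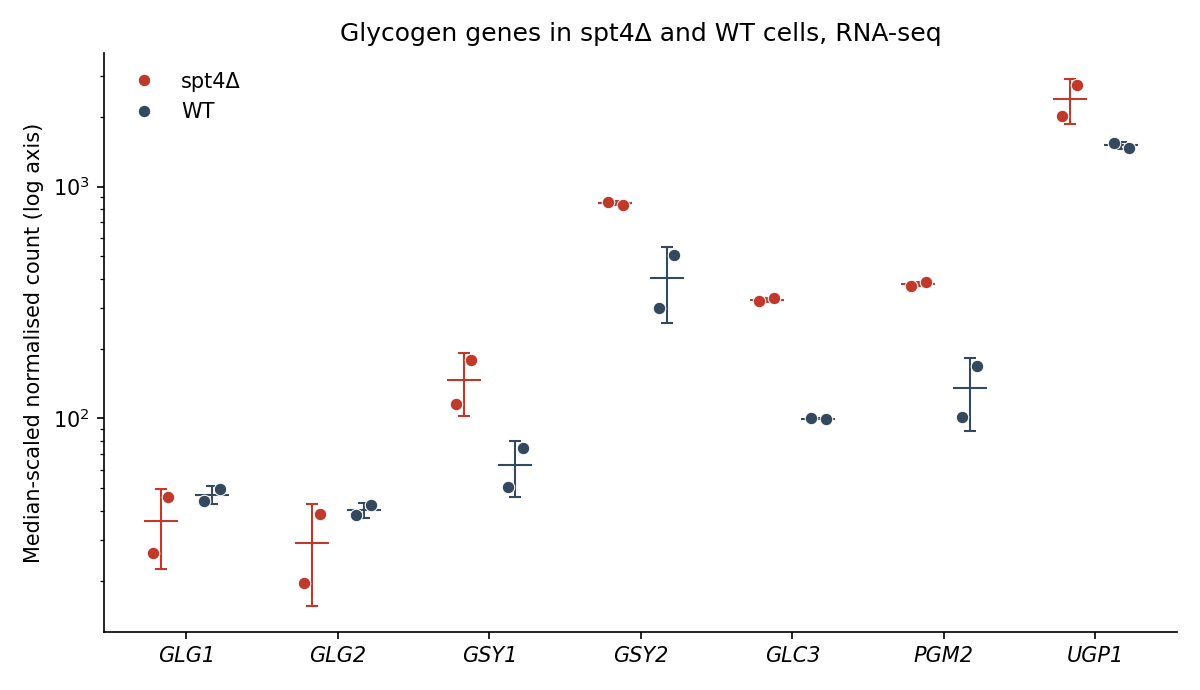
Median-scaled normalised counts (log axis) of the 7 glycogen genes in *spt4Δ* (left of each pair) and WT cells; points are single libraries, and bars give the mean and SD of the 2 libraries. The *GLC3* libraries sit at 319.9 and 329.8 in *spt4Δ* and at 100.1 and 99.7 in WT, whereas the *GLG1* and *GLG2* libraries overlap.

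Of the 7 members, limma called 2 higher in *spt4Δ* and did not call 5, where 0.682% of all 5278 genes were called higher. edgeR also called 2, and DESeq2 called 3, where it called 1.35% of genes higher. Both libraries exceeded both WT libraries for 5 of 7 members, where this held for 20.2% of all genes. The median log2 fold change of the members was 1.12, beside -0.01 over all genes tested. Fits without 1 *spt4Δ* library took their spread from the WT pair alone, whose replicates were the closer, and assumed that the lone *spt4Δ* library varied like them, so their p-values are the less certain. Fits without 1 WT library took theirs from the *spt4Δ* pair alone, whose replicates were the further apart. Without *spt4Δ* replicate 1, whose deposited scaling stood apart, 5 members were called higher, *GSY1* (1.53, limma adjusted p = 1.70e-04), *GSY2* (1.12, adjusted p = 3.89e-04) and *UGP1* (0.89, adjusted p = 1.05e-04) among them, where 4.78% of genes were. *GLG1* and *GLG2* then had log2 fold changes of -0.01 and -0.03. Without *spt4Δ* replicate 2, 6 members were called, with *GLG2* lower (-1.01, limma adjusted p = 0.0241), where 33.8% of genes were called in either direction. Without WT replicate 1 *GLC3* was the only member called (1.69, limma adjusted p = 0.0361) and *PGM2* was at 1.16 (adjusted p = 0.696), where 0.189% of genes were called higher. None of the 7 was called by limma on the deposited scale, where 0.227% of genes were called higher. Of the 7, 4 had an unadjusted limma p under 0.05 on that scale. The share of all genes under that unadjusted threshold was not counted. The log2 fold changes were then 2.53 for *GLC3* (adjusted p = 0.203) and 2.37 for *PGM2* (adjusted p = 0.356).

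Depletion of Spt4 for 140 min was compared with DMSO for the 3 members in that table, and all 3 rose. *GLC3* had 69.6 and 101 counts in Spt4-AA, against 15.2 and 31.3 in DMSO, from 71 and 130 reads against 13 and 29. The DMSO pair was itself spread, with the *SPT4-FRB* library the lower, and still lay below both Spt4-AA libraries. The log2 fold change was 1.89 (SE 0.375, 3.71-fold, limma adjusted p = 0.0278). *GSY2* had 164 and 196 counts in Spt4-AA, against 70.2 and 68.0 in DMSO, a log2 fold change of 1.36 (SE 0.180, 2.57-fold, limma adjusted p = 0.00837). *UGP1* had 760.3 and 1209 counts in Spt4-AA, against 430.4 and 416 in DMSO, a log2 fold change of 1.18 (SE 0.226, 2.26-fold, limma adjusted p = 0.0260). Here the groups did not overlap for any of the 3, and replicate 2 was the higher Spt4-AA library each time.

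The 3 calls compare with 4.72% of 4684 genes called higher, and the lack of overlap with 28.2% of genes above both DMSO libraries. The members' median log2 fold change was 1.36, beside 0.01 over all genes. All 3 were also called on the deposited scale, at 1.61 for *GLC3* (limma adjusted p = 0.0139), 1.07 for *GSY2* (adjusted p = 0.00626) and 0.88 for *UGP1* (adjusted p = 0.0230), where 3.03% of genes were called higher. The calls depended on keeping both DMSO libraries. Fits without 1 of them took their spread from the Spt4-AA pair alone, whose replicates were the further apart (interquartile range 0.502 against 0.236). A call could thus be lost without a change in fold change. The log2 fold changes of *GSY2* and *UGP1* moved little in these fits, and that of *GLC3* moved more. Without DMSO replicate 1, the control of the same strain, none was called by limma (all 3 had an unadjusted p under 0.05), with *GSY2* at 1.38 (adjusted p = 0.0528), *GLC3* at 1.39 (adjusted p = 0.111) and *UGP1* at 1.19 (adjusted p = 0.192), where 0.855% of genes were called higher. Without DMSO replicate 2, which left the control of the same strain, *GLC3* (2.38, limma adjusted p = 0.00862) and *GSY2* (1.33, adjusted p = 0.0379) were called and *UGP1* (1.15, adjusted p = 0.169) was not, where 1.41% of genes were called higher.

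After 180 min of Spt5 depletion the same 3 genes rose relative to the median gene, *GLC3* by the largest factor of the 3. *GLC3* had 497 and 472 counts in Spt5-AA, against 9.66 and 20.0 in DMSO. The log2 fold change was 5.02 (SE 0.252, 32.5-fold, limma adjusted p = 4.50e-10), rank 5 among 4665 genes tested. It rests on 292 and 429 reads in Spt5-AA, against 13 and 29 reads in DMSO, so the DMSO level is the less precise side of the ratio. *GSY2* had 386 and 453 counts in Spt5-AA, against 44.6 and 43.4 in DMSO, a log2 fold change of 3.22 (SE 0.160, 9.33-fold, limma adjusted p = 4.16e-10). *UGP1* had 1060.2 and 954 counts in Spt5-AA, against 273 and 266 in DMSO, a log2 fold change of 1.90 (SE 0.132, 3.72-fold, limma adjusted p = 1.71e-08). In median-scaled counts, no Spt5-AA library of these genes came near a DMSO library.

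**Figure D2:**
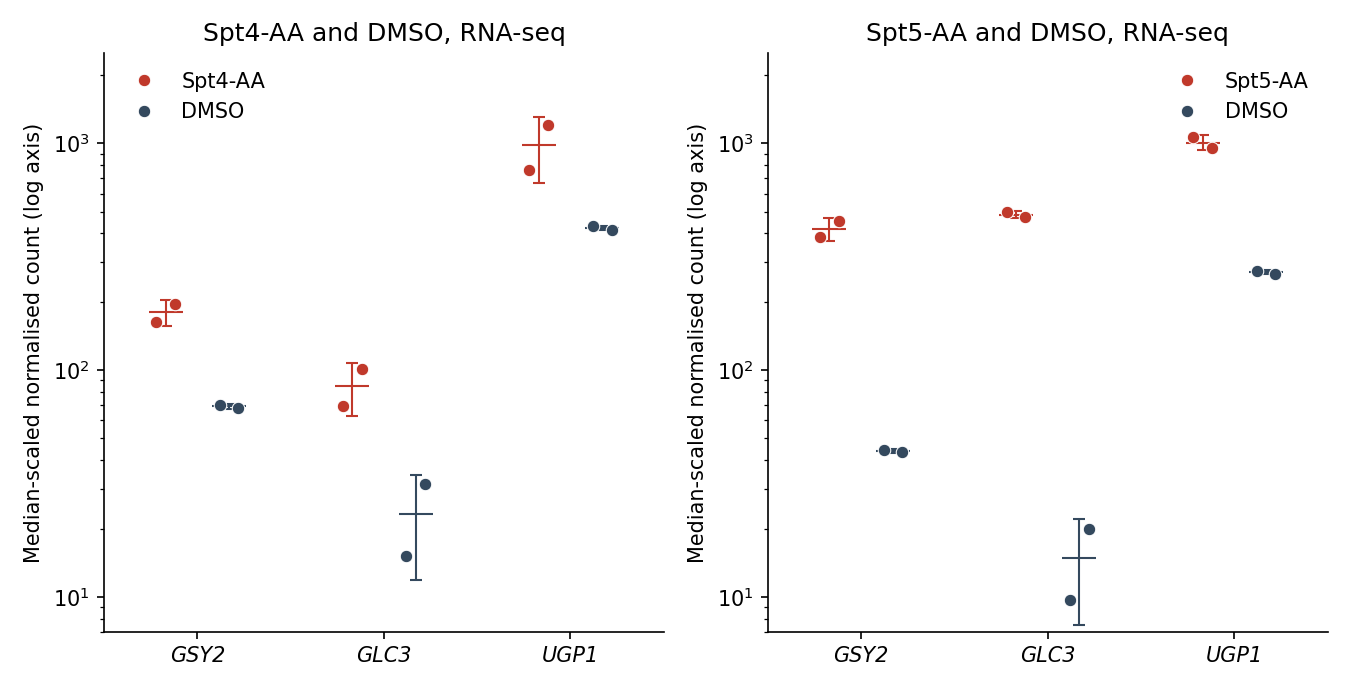
Median-scaled normalised counts (log axis) of *GSY2*, *GLC3* and *UGP1* in Spt4-AA and DMSO (one panel) and in Spt5-AA and DMSO (the other), the depleted cells left of DMSO in each pair; points are single libraries and bars the mean and SD of the 2 libraries. *GLC3* sits at 69.6 and 101 in Spt4-AA and at 497 and 472 in Spt5-AA, above its DMSO libraries in both panels, which show the same DMSO libraries scaled within each table.

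In this comparison calls were common: 26.2% of 4665 genes were called higher and 38.2% lay above both DMSO libraries, and 3 of 3 members were in both sets. Their median log2 fold change was 3.22, beside -2.93e-04 over all genes, and each lay above the 95th percentile of all genes (1.70). The shift of the median gene between the scales was larger here than in the other comparisons. On the deposited scale *GLC3* had 248 and 262 counts in Spt5-AA, against 18.0 and 39.3 in DMSO (3.21, limma adjusted p = 1.03e-12). *GSY2* had 193 and 252 counts in Spt5-AA, against 83.0 and 85.4 in DMSO (1.38, adjusted p = 8.25e-08). *UGP1* had 529 and 531 counts in Spt5-AA, against 509 and 523 in DMSO, a log2 fold change of 0.04 (SE 0.150, adjusted p = 0.811). *UGP1* thus rose only relative to a median gene that was 1.84 lower on the log2 scale, whereas *GLC3* and *GSY2* rose on both scales, where 2.38% of genes were called higher on the deposited scale. Leaving out any 1 library kept all 3 calls, with *GLC3* between 4.51 and 5.47, *GSY2* between 3.11 and 3.34 and *UGP1* between 1.82 and 1.97, where 27.6% of genes were called higher without Spt5-AA replicate 1, 26.9% without Spt5-AA replicate 2, 19.9% without DMSO replicate 1 and 19.0% without DMSO replicate 2.

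**Figure D3:**
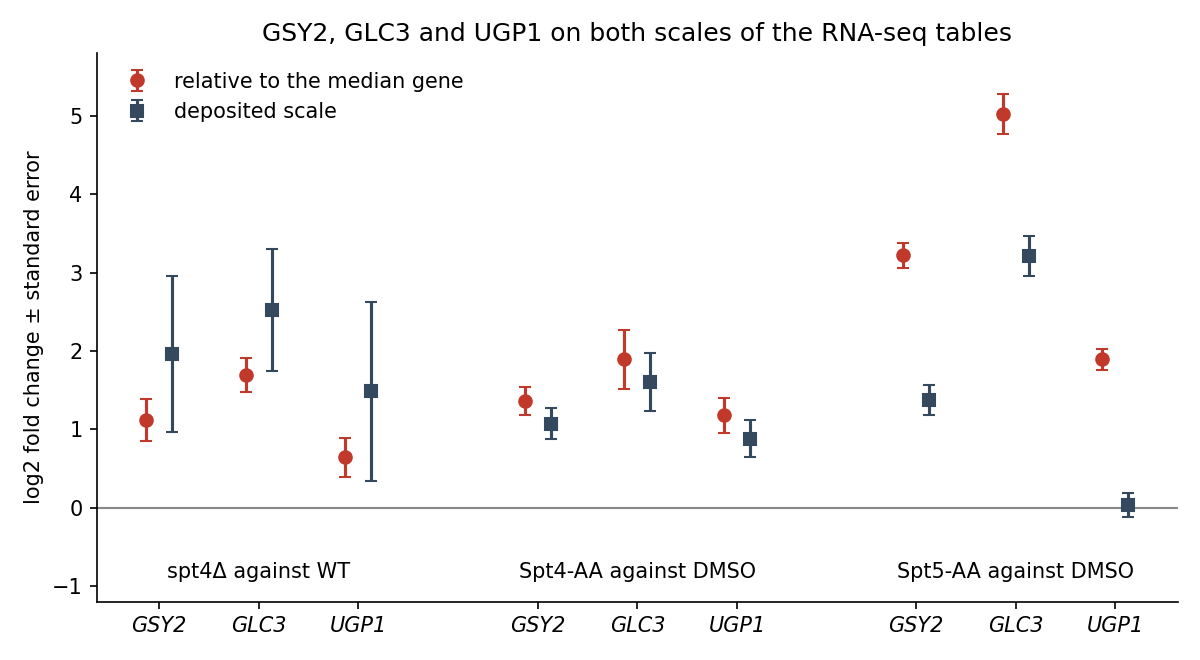
Log2 fold changes with their standard errors for *GSY2*, *GLC3* and *UGP1* in the 3 comparisons, relative to the median gene (circles) and on the deposited scale (squares). In Spt5-AA *UGP1* is at 1.90 relative to the median gene and at 0.04 on the deposited scale, and the *spt4Δ* squares carry the widest error bars.

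The anchor-away comparisons shared their DMSO libraries (the reads were identical for all 4835 genes), and their tables were scaled separately. Side by side, the log2 fold changes of Spt4-AA and Spt5-AA were 1.89 and 5.02 for *GLC3*, 1.36 and 3.22 for *GSY2*, and 1.18 and 1.90 for *UGP1*. The times of depletion differed, and the differences between the comparisons were not tested.

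Per kilobase of coding sequence, the members kept a wide range of levels. In *spt4Δ* the order of median-scaled counts per kb was *UGP1* (1588 ± 346), *GSY2* (400.4 ± 8.64), *PGM2* (222 ± 5.25), *GLC3* (154 ± 3.32), *GSY1* (69.1 ± 20.8), *GLG2* (25.5 ± 11.9) and *GLG1* (19.5 ± 7.42) (SD, n = 2 libraries). In WT it was *UGP1* (1005 ± 37.9), *GSY2* (190.4 ± 68.8), *PGM2* (79.1 ± 27.7), *GLC3* (47.2 ± 0.111), *GLG2* (35.1 ± 2.50), *GSY1* (29.5 ± 7.95) and *GLG1* (25.4 ± 2.20). Neighbours whose libraries overlapped were *GLG2* and *GLG1* in *spt4Δ*, and *GLG2*, *GSY1* and *GLG1* in WT, so the place of *GSY1* above *GLG2* was resolved in *spt4Δ* and not in WT.

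The order of *GLC3* and *GSY2* turned over on Spt5 depletion. In Spt5-AA *GLC3* (229 ± 8.27 counts per kb, SD, n = 2) lay above *GSY2* (198 ± 22.4), and *UGP1* had 672 ± 49.9. In the DMSO libraries of that table *GLC3* (7.01 ± 3.45) lay below *GSY2* (20.8 ± 0.388), and *UGP1* had 179.8 ± 3.49. In neither group did the *GLC3* and *GSY2* libraries overlap. Spt4-AA kept the order of its DMSO libraries, with *GLC3* at 40.4 ± 10.6 and *GSY2* at 84.9 ± 10.9 in Spt4-AA, against 11.0 ± 5.38 and 32.6 ± 0.741 in DMSO.

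Genes that act beside the members were counted from lists chosen with earlier results of these data known. The regulators of glycogen synthase and of its phosphatase (the phosphatase Glc7 and its targeting subunits, the kinase Pho85 with its cyclins, Snf1 kinase and the Psk kinases) gave 0 calls among the 15 tested in *spt4Δ* by limma, edgeR and DESeq2, with 0 at an unadjusted limma p under 0.05, and a median log2 fold change of -0.07. Limma called 1.04% of all genes there in either direction. The list did hold a lower call without *spt4Δ* replicate 2, a fit with many calls. In Spt4-AA 1 of 12 rose, *GLC8*, a regulatory subunit of Glc7 (0.84, limma adjusted p = 0.0280), where 4.72% of all genes were called higher. That call was lost on the deposited scale and without either DMSO library. The list's median of 0.29 became 0.30 without Spt4-AA replicate 1 and 0.26 without Spt4-AA replicate 2. Calls among the 12 and calls over all genes both rose in these fits, whose spread came from the DMSO pair alone. In Spt5-AA 6 of 12 were higher and 2 lower, relative to the median gene, where 26.2% of all genes were higher and 28.2% lower. Among them *REG1*, which targets Glc7 to Snf1, was at 1.17, *GLC8* at 1.13 and *PIG2*, a putative Glc7 targeting subunit for glycogen synthase, at 1.05, while *GLC7* was at -1.33 and *SNF4*, the Snf1 activating subunit, at -0.49. All 12 were lower in Spt5-AA on the deposited scale, where 93.1% of genes were called in either direction, so the direction of the 6 holds only relative to the median gene. Relative to that gene, the list's median of 0.45 became 0.37 without DMSO replicate 1 and 0.50 without DMSO replicate 2. It was 0.38 without Spt5-AA replicate 1 and 0.67 without Spt5-AA replicate 2. The number of the 12 called changed in some of these fits, as did the number over all genes.

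Genes of trehalose synthesis, which draws on the same UDP-glucose, and of trehalose breakdown rose in part. In *spt4Δ* 1 of 7 was called, *TPS1*, the trehalose 6-phosphate synthase subunit, with 1268 and 1357 counts in *spt4Δ* against 502 and 593 in WT (1.26, limma adjusted p = 0.0247), and the list's median was 0.72. Limma called 0.682% of all genes higher in *spt4Δ*. The *TPS1* call was lost on the deposited scale and without either WT library. The list's median was 0.79 without *spt4Δ* replicate 1 and 0.49 without *spt4Δ* replicate 2. In Spt4-AA 4 of 7 rose (median 0.80), with *NTH1*, the neutral trehalase, at 1.61, *TPS1* at 1.45 and the phosphatase subunit gene *TPS2* at 1.31. In that comparison 4.72% of all genes were called higher. Calls among the 7 were lost, in whole or in part, without a DMSO library, and calls over all genes fell too. The list's median was 0.72 without DMSO replicate 1 and 0.86 without DMSO replicate 2. In Spt5-AA 7 of 7 were higher (median 2.44), with *NTH1* at 3.53, *TSL1*, a large subunit of the synthase complex, at 3.43 and *TPS2* at 2.54. Relative to the median gene, 26.2% of all genes were called higher in Spt5-AA. On the deposited scale 4 of the 7 were higher and 2 lower. There 2.38% of all genes were called higher and 93.1% in either direction.

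Among genes of hexose phosphorylation, the minor phosphoglucomutase and the sporulation glucoamylase, the member's paralog *PGM1* was not called in *spt4Δ* (0.36), and none of the 5 was, by limma, edgeR or DESeq2 (2 at an unadjusted limma p under 0.05). Limma called 0.682% of all genes higher in that comparison. The list's median of 0.78 became 0.64 without *spt4Δ* replicate 1 and 0.79 without *spt4Δ* replicate 2. It was 0.41 without WT replicate 1 and 0.59 without WT replicate 2. Calls among the 5, and calls over all genes, changed with the library left out, and some of the 5 were then called. *GLK1*, glucokinase, had 399 and 511 counts in Spt4-AA, against 101 and 145 in DMSO (1.90, limma adjusted p = 0.00657). There 4.72% of all genes were called higher. In Spt5-AA *GLK1* had 1938 and 1622 counts, against 63.9 and 92.3 in DMSO (4.51), while *PGM1* (-0.70) and *HXK2*, the main hexokinase on glucose (-0.43), were lower. Relative to the median gene, 26.2% of all genes were called higher in that comparison and 28.2% lower. Without 1 library *PGM1* was between -0.92 and -0.49 and *HXK2* between -0.46 and -0.40. The calls of these 2 genes did not hold in every such fit.

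Markers of the general stress response were counted in the same fits. In *spt4Δ* 2 of 10 rose, *PNC1*, a nicotinamidase (1.60, limma adjusted p = 0.0211), and *HSP12*, a membrane-associated heat shock protein (1.39, adjusted p = 0.0251). The list's median was 0.96, and 0.682% of all genes were called higher. Both calls were lost on the deposited scale and without either WT library. The median was 1.33 over the 8 genes tested without *spt4Δ* replicate 1 and 0.54 over the 7 tested without *spt4Δ* replicate 2. In Spt4-AA 4 of 5 rose (median 2.00), where 4.72% of all genes were called higher. In Spt5-AA 5 of 5 rose (median 3.64), where 26.2% were. These counts held on the deposited scale, with medians of 1.71 and 1.78, where 3.03% and 2.38% of all genes were called higher. *HSP12* had 68.6 and 43.6 counts in Spt4-AA, against 7.02 and 9.71 in DMSO (2.59), and 2767 and 3050 in Spt5-AA, against 4.46 and 6.20 in DMSO (8.86). Genes of protein kinase A and the stress regulators gave 0 calls among 6 in *spt4Δ* by limma (0 at an unadjusted p under 0.05), edgeR and DESeq2. Their median of -0.03 became 0.34 without *spt4Δ* replicate 1 and -0.27 without *spt4Δ* replicate 2. The list did hold a call in the second of these fits, where calls over all genes rose too. In Spt4-AA limma called none of the 3 tested (0 at an unadjusted p under 0.05). On the deposited scale 1 was lower, where 21.8% of all genes were called in either direction. The median of -0.12 in Spt4-AA became -0.36 without Spt4-AA replicate 1 and 0.34 without Spt4-AA replicate 2. In Spt5-AA *BCY1*, the regulatory subunit of protein kinase A, was higher (0.73) and *TPK3*, a catalytic subunit, lower (-0.61), relative to the median gene. On that scale 26.2% of all genes were called higher and 28.2% lower. All 3 tested were lower in Spt5-AA on the deposited scale, where 93.1% of all genes were called in either direction and 2.38% higher. The part of a stress response in the members' values was not tested.

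**Figure D4:**
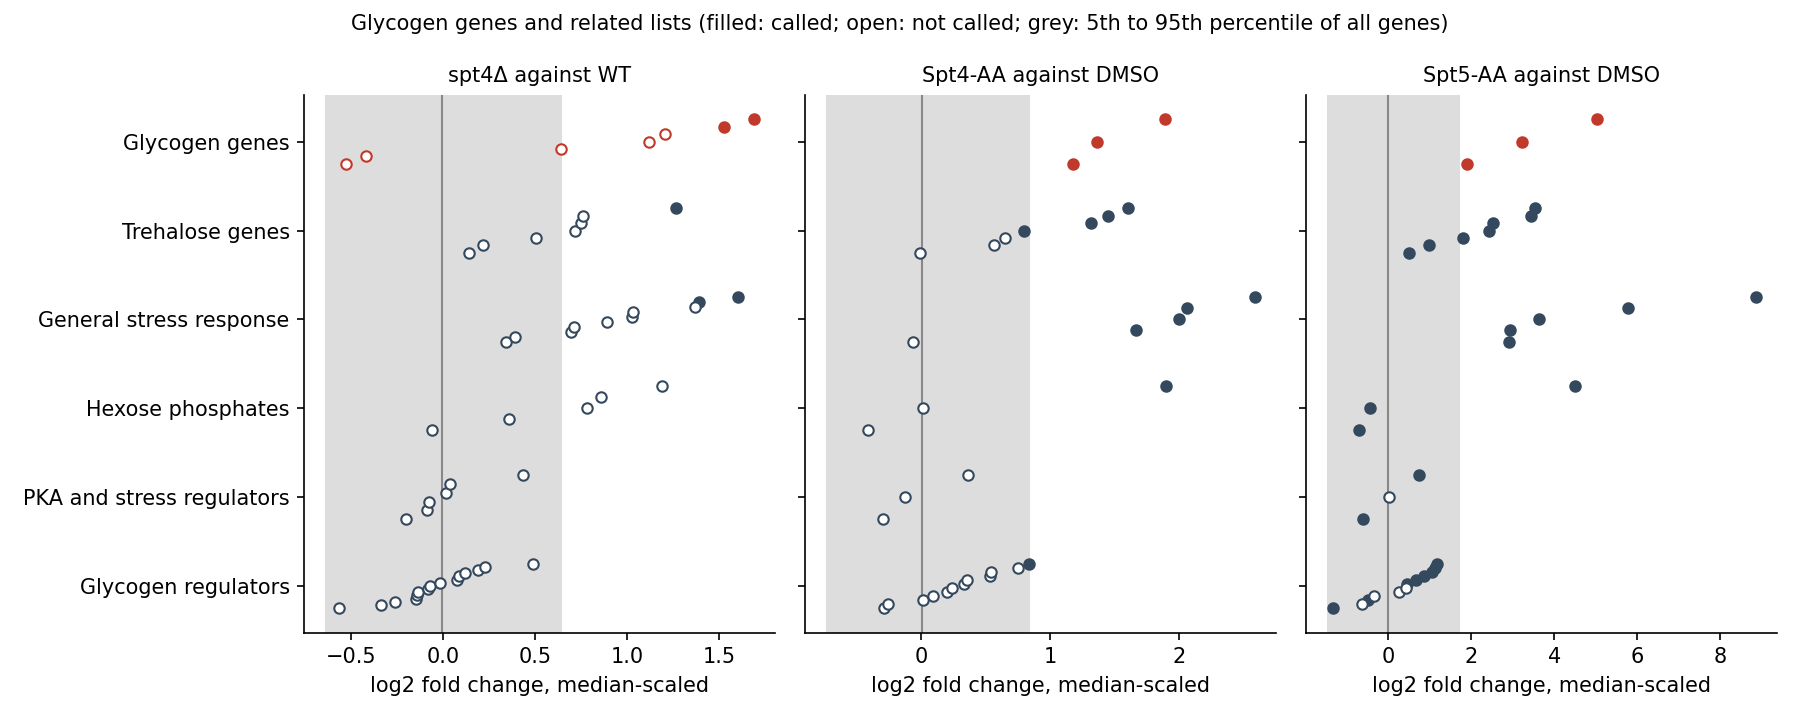
Log2 fold changes relative to the median gene for the glycogen genes and the 5 related lists in each comparison; each point is a gene, filled where called and open where not, and the grey band spans the central range of all genes. The regulators sit around a median of -0.07 in *spt4Δ*, while in Spt5-AA *GLC3* is at 5.02 and *HSP12* at 8.86.

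The genes whose profile was most like that of the 3 members present in every table were sought by Pearson's r with the members' mean, over 12 library columns (10 libraries, the DMSO ones counted in both tables) and 3430 genes, as a description. The nearest were *TSA1*, a peroxiredoxin (r = 0.996), *CIT1*, mitochondrial citrate synthase (0.996), *HSP78*, a mitochondrial chaperone (0.994), *PRB1*, vacuolar protease B (0.991), and *PCS60*, a peroxisomal protein (0.989). *PCS60* had log2 fold changes of 1.18 in *spt4Δ*, 1.84 in Spt4-AA and 3.35 in Spt5-AA. In *spt4Δ* *TSA1* was at 0.81, *CIT1* at 1.07, *HSP78* at 1.15 and *PRB1* at 1.06. Among these nearest genes limma called only *HSP78* and *PCS60* in *spt4Δ*, where 0.682% of all genes were called higher. The members' own r with the mean of the other members was 0.975 for *GSY2*, 0.973 for *GLC3* and 0.955 for *UGP1*. All of these values share the libraries and the DMSO columns.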

How the data were processed

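Total RNA was prepared after *Schizosaccharomyces pombe* cells had been added before lysis, depleted of ribosomal RNA and sequenced as directional libraries. The submitters' processing notes name Trim Galore, TopHat and DESeq2, with R64 (sacCer3) and the *S. pombe* assembly ASM294v2. The counter, the annotation and the origin of the size factors are not given in the sources used here. The deposited tables hold a signal, normalised counts per gene that the authors divided by a factor per library, 1 table per comparison. Deposited tables of the authors' own fold changes and p-values were not used. Reads were recovered by dividing each library's values by its smallest value above 0, which was taken as 1 read. This gave whole numbers for 100% of values (tolerance 0.01 reads), and totals per library were 798455 to 6814227 reads. There were no unused sample columns.

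Values were rescaled to the median gene and tested as log2(value + 1) in R 4.3.3 with limma 3.58.1 (intensity trend, two-sided, Benjamini-Hochberg, genes with a mean of at least 10). On the recovered reads, edgeR 4.0.16 called 47 genes in *spt4Δ*, 459 in Spt4-AA and 2637 in Spt5-AA, and DESeq2 1.42.0 (missing adjusted p-values left missing) called 108, 468 and 1954. limma called 55, 419 and 2538. Scalings, pseudocounts, filters, a replicate block and each library left out were tried. Upstream matches were searched with Python 3.11.15 in the RefSeq R64 genome, and paralogs were aligned with BLAST+ 2.17.0. All members were named, with the called genes of the related lists of largest change and the members' nearest profiles. The members and lists were chosen with earlier results of these data known. Genes of the related lists that passed the filter in no table were not tested, and 1 further gene is not reported here.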

Additional observations from a re-analysis of the deposited data

Results flagged for a closer look

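Among the glycogen genes and the related lists, 1 gene had both libraries above both DMSO libraries after depletion of one factor and both below them after depletion of the other. *PSK2*, which encodes a kinase that phosphorylates glycogen synthase and UDP-glucose pyrophosphorylase, had 264 and 227 median-scaled counts in Spt5-AA, against 169 and 185 in DMSO (log2 fold change 0.46, limma adjusted p = 0.0165). It had 229 and 237 counts in Spt4-AA, against 267 and 290.2 in DMSO (-0.26, adjusted p = 0.333). Both Spt5-AA libraries were above, and both Spt4-AA libraries below, both DMSO libraries, and the log2 fold changes differed by 0.72, which was not tested. Of all genes tested, 38.2% lay above both DMSO libraries in Spt5-AA, and 28.1% lay below both in Spt4-AA. The share of genes that met both rules was not counted, so 1 such gene may be no more than the background. On the deposited scale both were negative, at -1.39 in Spt5-AA and -0.55 in Spt4-AA.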

How the results depend on the processing

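Against 55 genes called by limma in *spt4Δ* (65.5% of them higher), the deposited scale gave 13 (92.3% higher), equal library totals 15 (80.0% higher) and DESeq2 108, and leaving out 1 library gave 16 to 1779. Of the 7 members, 2 were called, 0 on the deposited scale (4 at an unadjusted p under 0.05), 0 with equal totals (5 at an unadjusted p under 0.05) and 1 to 6 without 1 library. Their median of 1.12 became 1.96 on the deposited scale and 0.74 to 1.49 without 1 library, and *GLG1* (0.40) and *GLG2* (0.29) turned positive on the deposited scale. The differences between replicates 1 and 2 were negatively correlated between *spt4Δ* and WT (r = -0.264 over 5278 genes). Whether same-numbered libraries shared a culture or batch was not tested. The replicate block called 90 genes and 4 members, and the crossed pairing, added after seeing the data, 267 genes and 4 members. In Spt4-AA 419 genes were called (52.7% higher), 1022 on the deposited scale (13.9% higher), 672 with equal totals (72.9% higher) and 53 to 1643 without 1 library. The 3 members called became 0 to 3 without 1 library, and their median of 1.36 became 1.07 on the deposited scale and 1.22 to 1.51 without 1 library. *SPT4* in Spt4-AA, at -0.06, became 0.0756 with equal totals and -0.28 to 0.15 without 1 library. In Spt5-AA 2538 genes were called (48.2% higher), 4351 on the deposited scale (2.55% higher) and 1622 with a minimum mean of 100. The members' median of 3.22 became 1.38 on the deposited scale, 3.34 with equal totals, 2.99 with a pseudocount of 10 and 3.11 to 3.34 without 1 library. On the deposited scale *REG1* (-0.69), *GLC8* (-0.71), *PIG2* (-0.77) and *BCY1* (-1.10) turned negative in Spt5-AA. The cause of these changes was not tested beyond the shift of the median gene. The fewest reads behind a member's value were 13 and 29 for *GLC3* in DMSO and 22 to 65 a library for *GLG1* and *GLG2*, and what these depths add to the error was not tested apart from replicate spread. Leaving out 1 library leaves a group with a single library, which is assumed to vary like the other group.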
